A study of Mus musculus with 12 samples.

Results

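SR proteins and splicing regulators are described here as a set of 30 genes, taken by their gene symbols from 52330 genes counted in all 12 poly(A) RNA-seq libraries of mouse splenic B cells. The rule takes genes by symbol and uses no measured value, but the list of symbols was drawn up with earlier results of these data known. The genes comprise 10 SR protein genes, 2 transformer 2 genes, 3 genes of the DBHS paraspeckle family, 4 RBM genes, 4 CELF, MBNL and RBFOX genes, 2 TIA genes, 2 CLK kinase genes, 2 LUC7-like genes and Son. The study set B cells of double knockout (DKO) mice, which lack hnRNP A1 and hnRNP A2B1 through Cre-loxP deletion, against wild-type (WT) B cells. Stimulated cells were cultured with anti-CD40 at 1 μg/mL and anti-IgM at 10 μg/mL for 48 h, and came as 2 DKO and 2 WT libraries. Untreated cells were lysed after isolation without culture, and came as 3 DKO and 3 WT libraries and a further 2 untreated WT libraries titled apart from the rest (the additional WT libraries). All cells were isolated from spleen by negative selection on CD43 magnetic beads. The labels do not give the driver of Cre, the strain, the age or the sex of the mice, and they do not say whether libraries of a group came from separate animals. The p-values below therefore measure only the spread between these libraries.

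SR proteins carry RNA recognition motifs and a tail rich in arginine and serine, bind exonic enhancers and help to recruit the spliceosome to nearby splice sites. Members of the hnRNP A/B family, to which both deleted proteins belong, often act against SR proteins on the same exons. CELF, MBNL, RBFOX and TIA proteins bind introns or exon borders and set the use of alternative exons, CLK kinases phosphorylate the tails of SR proteins, and LUC7-like proteins associate with the U1 particle at the 5′ splice site. Transcripts of many SR genes contain exons whose inclusion leads to decay of the transcript, through which their products regulate their own level. The values here count reads over whole genes and do not resolve such exons.

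The libraries held 15090953 to 21731893 counts each, and every member but Rbfox2 had 573 counts or more in every library. Hnrnpa1 stood in the DKO libraries at 10.6% to 27.4% of the WT mean of the same condition and Hnrnpa2b1 at 17.4% to 32.3%, with untreated DKO library 2 the highest for both. All 7 markers of B cells were above 1 CPM (counts scaled to the size of the library) in every library. Their summed level was 2724 to 3199 CPM in untreated DKO libraries and 3402 to 3894 CPM in untreated WT libraries, and 4220 to 4604 CPM in stimulated DKO libraries and 5818 to 6350 CPM in stimulated WT libraries. The 8 markers of monocytes and macrophages summed to 37.3 to 65.8 CPM in untreated DKO libraries and 65.9 to 73.0 CPM in untreated WT libraries, with 3 of the 8 at 1 CPM or more in every untreated library. The 8 markers of T cells summed to 46.4 to 80.4 CPM in untreated DKO libraries and 76.3 to 101 CPM in untreated WT libraries, with 1 of the 8 at that level throughout. That gene was Lck, which made up nearly all of the sum, at 44.3 to 78.8 CPM in DKO and 74.7 to 99.8 CPM in WT. In stimulated cells the sums were 54.8 to 55.5 CPM in DKO and 65.8 to 77.3 CPM in WT for monocytes and macrophages. For T cells they were 130 to 170 CPM in DKO and 163 to 179 CPM in WT, of which Lck had 128 to 167 CPM in DKO and 161 to 175 CPM in WT. Dendritic cell markers went the other way in stimulated cells, where the 5 genes summed to 67.8 to 68.3 CPM in DKO and 39.7 to 48.6 CPM in WT, with Clec9a at 0 in both DKO libraries. In untreated cells they summed to 71.4 to 77.0 CPM in DKO and 57.1 to 78.0 CPM in WT. The part of these markers in the results below was not tested. In bulk samples, fewer cells of a type and less RNA per cell cannot be told apart.

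The 30 genes took 1.03% to 1.04% of all counts in untreated DKO libraries and 1.09% to 1.13% in untreated WT libraries. In stimulated cells they took 0.829% and 1.06% in the DKO libraries and 1.15% and 1.17% in the WT libraries. On these plain totals the ranges did not overlap between genotypes in either condition. The members' levels below are instead divided by TMM scaling factors. These were 0.974 to 0.985 in untreated DKO libraries and 1.03 to 1.05 in untreated WT libraries. Such division brings the untreated shares of the 2 genotypes closer together, and the separation was not tested. The share of stimulated DKO library 1 was the lowest of the 12.

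Among the 30 genes, the 8 most abundant per unit of length in untreated WT cells were 6 SR protein genes (Srsf2, Srsf5, Srsf1, Srsf7, Srsf6 and Srsf3) and the DBHS genes Sfpq and Nono. On the scale of CPM per kilobase of the deposited exonic gene length, Srsf2 was the highest in untreated WT cells at 201 ± 8.02 (SD, n = 3 libraries). It did not overlap the next gene, Sfpq at 152 ± 5.33, while Sfpq overlapped Srsf5 at 149 ± 2.76 and Srsf5 overlapped Srsf1 at 144 ± 2.96. At the low end stood Srsf4 at 12.9 ± 0.91, Celf2 at 9.05 ± 0.29 and Tia1 at 7.23 ± 0.31 CPM per kilobase. Their deposited exonic lengths were 3561, 25884 and 15750 bases, and before division by length their means were 46.0, 234 and 114 CPM. The order at this end thus depends on the length used. Rbfox2 had 0 to 8 counts in any library and was left out of all tests. With the genes put in the order of each group's own means, 12 of the 29 steps between neighbours separated the libraries without overlap in untreated DKO cells and 18 did so in untreated WT cells, 9 in stimulated DKO cells and 16 in stimulated WT cells. Srsf2 had the highest mean in untreated DKO cells too, at 181 ± 12.1 CPM per kilobase (n = 3), but there its libraries overlapped those of Srsf5 at 166 ± 12.6.

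**Figure D1:**
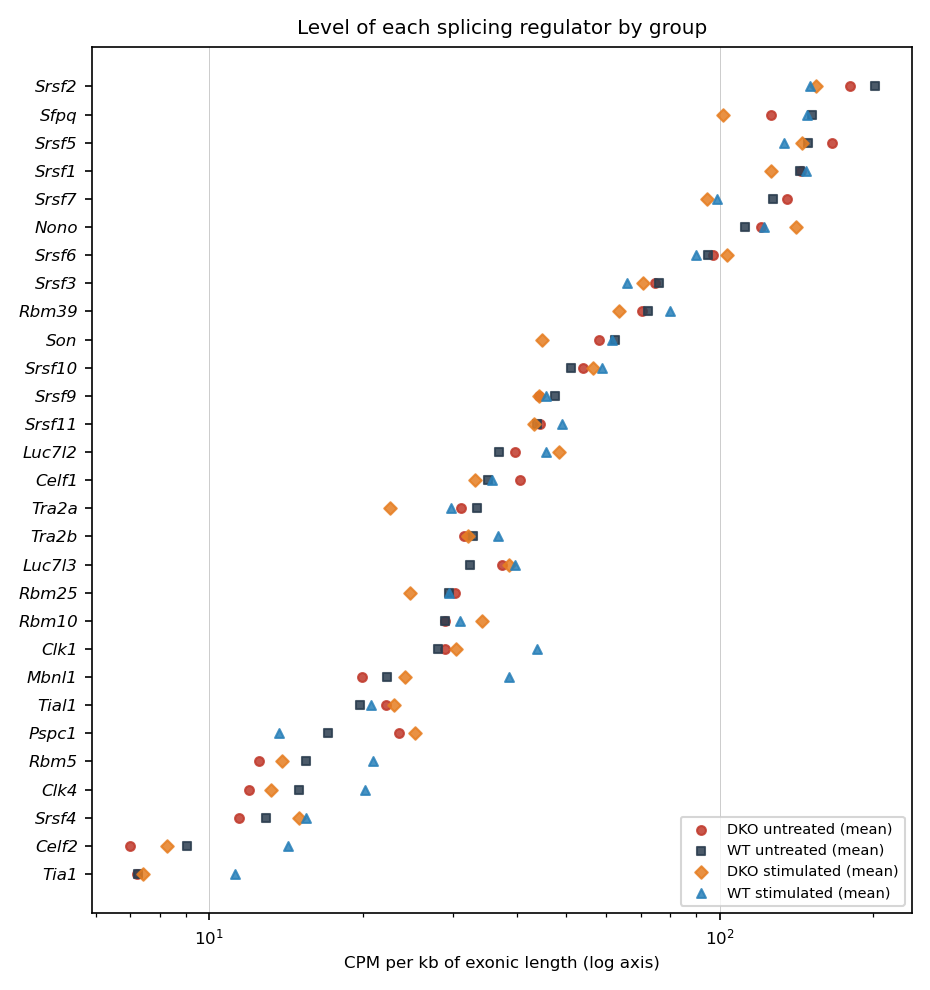
Level of each member per kilobase of exonic length (CPM per kilobase, log axis), with 1 symbol for the mean of each of 4 groups and genes ordered by the mean in untreated WT cells, Rbfox2 left out. Srsf2 lies at the top, at 201 in untreated WT cells, and Tia1 lowest of the 29 drawn, at 7.23, and the groups lie close together for most genes.

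In untreated cells, Pspc1, which encodes a paraspeckle protein, rose in DKO cells, and Sfpq, Rbm5, Celf2 and Clk4 fell, by less than a log2 value of 0.5 each. With the edgeR quasi-likelihood test and Benjamini-Hochberg adjustment over all genes, 5 of 29 tested members passed the threshold of 0.05, 1 higher and 4 lower. Among all 13561 genes tested 19.5% passed, 8.81% as higher and 10.6% as lower, so the share of the members called (17.2%) was near the background. The median log2 fold change was -0.02 over the members and -0.01 over all genes, and no member changed by a log2 value of 1 or more. The libraries of the 2 genotypes did not overlap for 9 members, 3 higher and 6 lower, while 39.2% of all genes tested showed no overlap (19.1% higher and 20.0% lower). The lower calls were 2 without untreated DKO library 3 (4.57% of all genes) and 0 without untreated WT library 3 (4.04% of all genes). They were also 0 with a fit over 10 libraries (7.76% of all genes) and with the additional WT libraries added to WT (1.64%). Over the 13 alternatives tried, the change was -0.48 to -0.29 for Rbm5 and -0.66 to -0.28 for Celf2. It was -0.60 to -0.31 for Clk4 and -0.31 to -0.04 for Sfpq. Pspc1 passed without any 1 of the 6 libraries. Without untreated WT library 2 the higher calls were 2, Pspc1 and Celf1, against 8.6% of all genes.

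**Figure D2:**
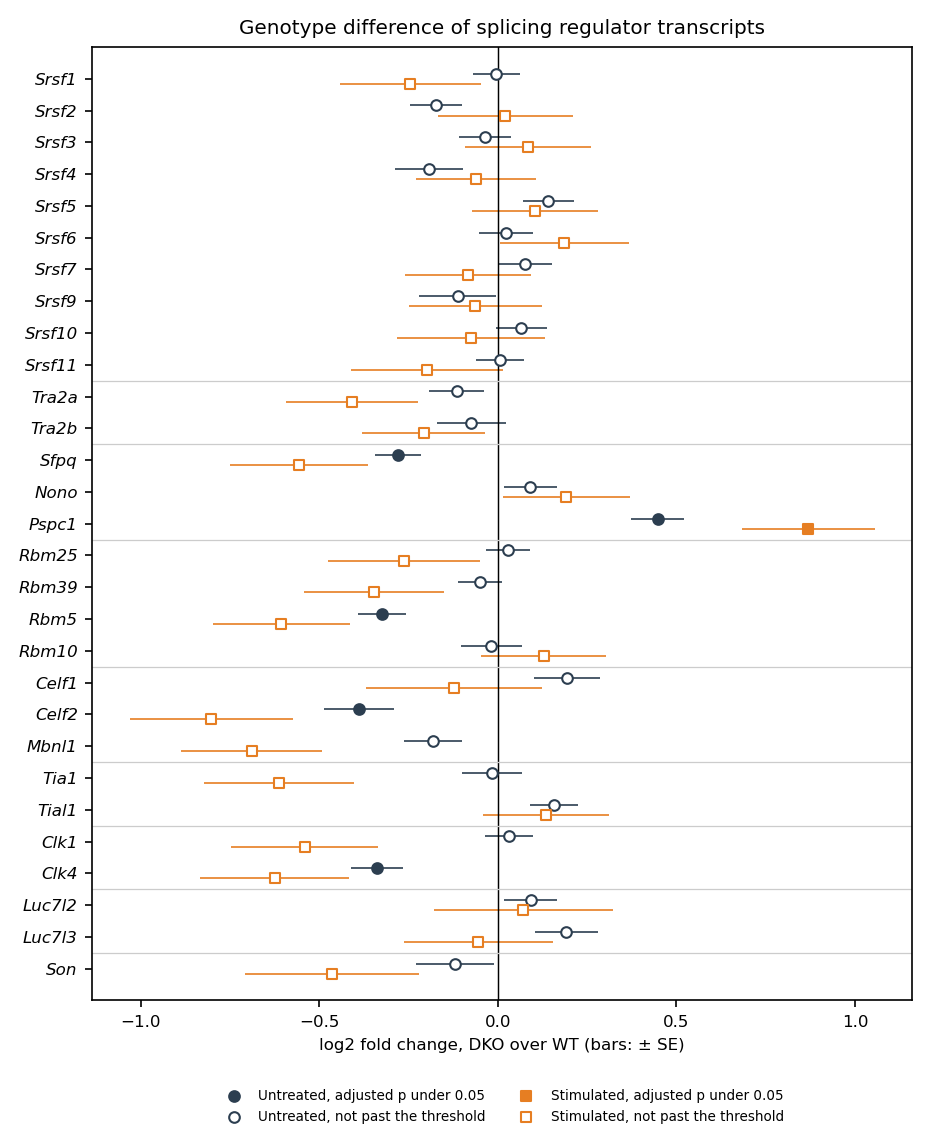
Log2 fold change of DKO over WT for the 29 tested members (points, with bars for ± 1 SE) in untreated and in stimulated cells, genes grouped by role. Filled points passed an adjusted p of 0.05: these are Pspc1 in both conditions, and Sfpq, Rbm5, Celf2 and Clk4 in untreated cells.

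The 3 DBHS genes encode closely related nuclear proteins that pair with each other and form the core of paraspeckles, and they also act in transcription and splicing. In untreated cells Pspc1 (chr14:56958167-57015773, minus strand, GRCm39) had 141, 133 and 131 CPM in the DKO libraries, against 92.3, 103 and 98.6 CPM in the WT libraries. Every DKO library was above every WT library, and the log2 fold change was 0.45 ± 0.07 (SE, edgeR adjusted p = 0.00565). With the additional WT libraries added to WT the call was lost (edgeR adjusted p = 0.102), a setting under which 2.28% of all genes were called. Those libraries had 60.55 and 69.2 CPM, below the numbered WT libraries and farther from DKO. The log2 fold change stayed between 0.40 and 0.66 over the 13 alternatives tried. In stimulated cells Pspc1 had 138 and 152 CPM in the DKO libraries, against 87.1 and 70.2 CPM in the WT libraries. The groups again did not overlap, and the change was 0.87 ± 0.19 (edgeR adjusted p = 0.0229). That call was lost without either of the WT libraries.

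Sfpq (chr4:126915117-126930806, plus strand, GRCm39), the most abundant DBHS gene per unit of length in untreated WT cells, had 607, 595 and 595 CPM in the untreated DKO libraries, against 693, 744 and 722 CPM in the untreated WT libraries. All DKO values were below all values of these numbered WT libraries, and the log2 fold change was -0.28 ± 0.06 (edgeR adjusted p = 0.0178). The call was lost without DKO library 2 or 3 or WT library 3, with the replicate block and with a fit over 10 libraries. The additional WT libraries lay below all untreated DKO libraries, at 444 and 461 CPM. With them added to WT the call was lost too, and the change was -0.04 (edgeR adjusted p = 0.908). Stimulated cells had 434 and 530 CPM in the DKO libraries, against 696 and 709 CPM in the WT libraries. The groups did not overlap there either, but the difference of -0.56 ± 0.19 did not pass (edgeR adjusted p = 0.0915). Sfpq shares its span on the same strand with Gm12940, which had 402 to 585 counts in untreated DKO libraries and 528 to 890 counts in untreated WT libraries. No source used here says how reads in the shared span were assigned, and the value of Sfpq is uncertain to that extent.

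Nono (chrX:100472924-100492197, plus strand, GRCm39) had 500.4, 539 and 544 CPM in the untreated DKO libraries, against 523, 459 and 491 CPM in the untreated WT libraries. The groups overlapped, with a log2 fold change of 0.09 ± 0.07 (edgeR adjusted p = 0.423). In stimulated cells Nono had 614 and 619 CPM in DKO, against 551 and 517 CPM in WT, with a difference of 0.19 ± 0.18 (edgeR adjusted p = 0.502). The family thus held a member called higher, a member called lower and a member that did not pass in untreated cells.

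Because these 3 related genes gave different results, the 250 bases before the start of each are shown, from RefSeq on GRCm38.p6, 5′ to 3′ on the strand of the gene. Capitals mark 2 motifs found on either strand, CCAAT and the motif of NRF1 (GCGC, then any base, then TGCGC), so ATTGG is CCAAT on the other strand. The windows lie at chr14:56778319-56778568 on the minus strand for Pspc1, chr4:127021051-127021300 on the plus strand for Sfpq and chrX:101429401-101429650 on the plus strand for Nono.
Pspc1: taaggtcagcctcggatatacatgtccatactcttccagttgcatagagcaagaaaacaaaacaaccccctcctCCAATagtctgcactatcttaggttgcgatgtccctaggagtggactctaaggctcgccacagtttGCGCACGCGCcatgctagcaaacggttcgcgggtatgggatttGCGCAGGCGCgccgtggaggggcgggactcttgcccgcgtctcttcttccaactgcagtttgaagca
Sfpq: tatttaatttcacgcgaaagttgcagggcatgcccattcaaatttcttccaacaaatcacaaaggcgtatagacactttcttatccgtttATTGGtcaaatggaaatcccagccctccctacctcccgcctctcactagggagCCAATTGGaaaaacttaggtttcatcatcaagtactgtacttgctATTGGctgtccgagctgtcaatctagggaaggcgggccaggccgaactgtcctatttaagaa
Nono: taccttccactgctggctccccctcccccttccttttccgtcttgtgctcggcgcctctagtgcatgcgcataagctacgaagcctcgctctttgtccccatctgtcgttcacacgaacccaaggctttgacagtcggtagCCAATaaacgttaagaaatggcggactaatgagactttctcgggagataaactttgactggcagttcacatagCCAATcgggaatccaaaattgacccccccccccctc
Pspc1 held 1 match to CCAAT and 2 to the NRF1 letters, Sfpq held 4 to CCAAT, of which a pair overlaps as CCAATTGG, and Nono held 2 to CCAAT. All 3 windows hold CCAAT, which 12 of the 28 members with a window hold (42.9%) and 34.5% of 27025 genes hold. The NRF1 letters occur in 3 members (Pspc1, Srsf2 and Srsf9; 10.7%) and in 3.87% of all genes, and the Sp/KLF letters GGGCGG, not in capitals above, in 17 members (60.7%) and 33.0% of all genes. The median GC content was 59% over the members' windows and 52% over all windows. The 27025 genes were not limited to genes expressed in B cells and were not matched for GC content. These matches describe the letters only.

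None of the 10 SR protein genes passed the edgeR test between genotypes in untreated or stimulated cells, and none passed with DESeq2. At an unadjusted p under 0.05 the count was 1 in untreated cells (Srsf2) and 0 in stimulated cells, while 34.7% of all genes lay under it in untreated cells and 30.1% in stimulated cells. The log2 fold changes of the 10 genes ran between -0.19 and 0.14 in untreated cells and between -0.24 and 0.19 in stimulated cells. Srsf2, an SR protein that binds enhancers with varied sequences, had 563, 544 and 494 CPM in the untreated DKO libraries, against 611, 569 and 608 CPM in the untreated WT libraries. The groups did not overlap by a narrow margin, and the difference was -0.17 ± 0.07 (edgeR adjusted p = 0.125). Srsf2 lies across Mettl23 and Mfsd11 on the opposite strand, and whether the counting used strand is not stated in the sources. Srsf5 was also apart, at 719, 634 and 629.5 CPM in the DKO libraries, against 581, 602 and 595 CPM in the WT libraries. It differed by 0.14 ± 0.07 (edgeR adjusted p = 0.199). Srsf1, the SR protein known as ASF/SF2, had 797, 864 and 816 CPM in untreated DKO cells, against 823, 835 and 802 CPM in untreated WT cells, which overlap fully (-0.00 ± 0.07, edgeR adjusted p = 0.969). In stimulated cells Srsf1 had 641 and 798 CPM in DKO, against 845 and 842 CPM in WT, apart but with no call (-0.24 ± 0.20, edgeR adjusted p = 0.435). Srsf6, which binds purine-rich enhancers, had 491 and 503 CPM in stimulated DKO cells, against 457 and 408 CPM in stimulated WT cells, also apart with no call (0.19 ± 0.18, edgeR adjusted p = 0.521). The other 6 genes, Srsf3, Srsf4, Srsf7, Srsf9, Srsf10 and Srsf11, differed by -0.19 to 0.08 in untreated and by -0.20 to 0.08 in stimulated cells.

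The transformer 2 genes encode SR-like proteins that bind purine-rich enhancers. Tra2a had 198, 229.9 and 221 CPM in the untreated DKO libraries, against 239, 232 and 225 CPM in the untreated WT libraries, with overlap and a difference of -0.11 ± 0.08 (edgeR adjusted p = 0.324). In stimulated cells the groups did not overlap for Tra2a, at 143 and 171 CPM in DKO, against 194 and 218 CPM in WT, but the difference of -0.41 ± 0.18 did not pass (edgeR adjusted p = 0.172). Tra2b did not pass in either condition (-0.07 ± 0.10 in untreated and -0.21 ± 0.17 in stimulated cells).

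Of the 4 RBM genes, Rbm5 was the member called. Rbm5, a spliceosome-associated protein known for the regulation of apoptosis genes (chr9:107617570-107648195, minus strand, GRCm39), had 199.8, 183 and 196 CPM in the untreated DKO libraries, against 235, 239 and 244 CPM in the untreated WT libraries. The groups were well apart, and the log2 fold change was -0.32 ± 0.07 (edgeR adjusted p = 0.0119). In stimulated cells it had 192 and 236 CPM in DKO, against 303 and 342 CPM in WT, again with no overlap, but the difference of -0.61 ± 0.19 did not pass (edgeR adjusted p = 0.0713). Rbm25 and Rbm39, which associate with early spliceosomes, and the X-linked Rbm10, a relative of Rbm5, differed by -0.05 to 0.03 in untreated cells and by -0.35 to 0.13 in stimulated cells, with no call.

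The CELF and MBNL genes encode regulators known from muscle and brain that set developmental switches of exons. Celf2 (chr2:6544505-7514374, minus strand, GRCm39), which is abundant in lymphocytes, had 155, 202 and 185 CPM in the untreated DKO libraries, against 232, 243 and 228 CPM in the untreated WT libraries. The groups did not overlap, and Celf2 had the largest fall among the members, -0.39 ± 0.10 (edgeR adjusted p = 0.0257). In stimulated cells it had 170.1 and 258 CPM in DKO, against 375 and 364 CPM in WT. The groups stood apart and the difference was -0.80 ± 0.23, just short of the threshold (edgeR adjusted p = 0.0533). Mbnl1 (chr3:60380251-60537171, plus strand, GRCm39) had 389, 352 and 376 CPM in the untreated DKO libraries, against 401, 458 and 395 CPM in the untreated WT libraries, without overlap but without a call (-0.18 ± 0.08, edgeR adjusted p = 0.148). In stimulated cells Mbnl1 had 401 and 505 CPM in DKO, against 725 and 722 CPM in WT. Here too the groups were apart and the difference of -0.69 ± 0.20 fell short of the threshold (edgeR adjusted p = 0.0543). Celf1, which promotes the decay of GU-rich transcripts as well as splicing, had 339, 323 and 367 CPM in untreated DKO cells, against 275, 333 and 282 CPM in untreated WT cells. The groups overlapped in both conditions (0.19 ± 0.09 in untreated and -0.12 ± 0.25 in stimulated cells, edgeR adjusted p = 0.169 and 0.772).

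CLK1 and CLK4 are kinases that phosphorylate SR proteins and so shift their location in the nucleus. Clk4 (chr11:51152557-51172593, plus strand, GRCm39) had 68.2, 68.4 and 71.6 CPM in the untreated DKO libraries, against 83.7, 86.8 and 90.3 CPM in the untreated WT libraries. The groups were apart and Clk4 fell by 0.34 ± 0.07 on the log2 scale (edgeR adjusted p = 0.0140). A 7SK copy with 26 to 60 counts in the untreated libraries lies within Clk4 on the same strand. Clk1 had 244, 235 and 229 CPM in untreated DKO cells, against 227, 218 and 239 CPM in untreated WT cells, with overlap and a difference of 0.03 ± 0.07. In stimulated cells Clk4 had 65.4 and 87.5 CPM in DKO, against 104 and 130.1 CPM in WT. Clk1 had 233 and 264 CPM in stimulated DKO cells, against 303 and 412 CPM in stimulated WT cells. Neither kinase overlapped there between genotypes, and neither passed (Clk4 -0.62 ± 0.21, edgeR adjusted p = 0.0823; Clk1 -0.54 ± 0.21, edgeR adjusted p = 0.117).

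TIA1 and TIAL1 bind U-rich sequence after weak 5′ splice sites and are also parts of stress granules. Tia1 had 104, 114 and 123 CPM in the untreated DKO libraries, against 108, 118 and 116 CPM in the untreated WT libraries, which overlap. In stimulated cells it had 98.2 and 135 CPM in DKO, against 162 and 192 CPM in WT, apart but with no call (-0.61 ± 0.21, edgeR adjusted p = 0.0896). Tial1 had 147, 159.8 and 154 CPM in untreated DKO cells, against 136, 139 and 134 CPM in untreated WT cells, without overlap and without a call (0.16 ± 0.07, edgeR adjusted p = 0.136). Luc7l2 and Luc7l3 overlapped or differed with no call in both conditions, between -0.05 and 0.19. In stimulated cells Luc7l3 had 241 and 321 CPM in DKO, against 265 and 314 CPM in WT, and overlapped. Son, a large scaffold of nuclear speckles, had 969, 781 and 844 CPM in untreated DKO cells, against 825, 1048 and 916 CPM in untreated WT cells, with overlap and no call (-0.12 ± 0.11). In stimulated cells it had 519 and 821 CPM in DKO, against 938 and 895 CPM in WT, apart with no call (-0.46 ± 0.24, edgeR adjusted p = 0.233).

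Over the whole set in stimulated cells, 1 of 29 members passed the edgeR test as higher in DKO (Pspc1) and 0 as lower. Among all 14430 genes tested 11.3% passed (5.09% higher and 6.17% lower), and of the members 3.45% did. At an unadjusted p under 0.05 there were 7 lower members, namely Celf2, Mbnl1, Clk4, Tia1, Rbm5, Sfpq and Clk1, while 15.6% of all genes were lower at that level. DESeq2 called 5 of the 7 lower (Celf2, Mbnl1, Rbm5, Sfpq and Tia1) and 6.81% of all genes lower. The libraries did not overlap between genotypes for 18 members, 5 higher and 13 lower, against 61.5% of all genes tested (29.7% higher and 31.9% lower). The median log2 fold change was -0.12 over the members and -0.03 over all genes.

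The stimulated DKO libraries differed from each other in these genes more than other groups did. Library 2 was above library 1 in 25 of 29 members. The share over all genes was not counted, so this direction is not read as particular to the members. The higher value exceeded the lower by a median of 1.24-fold over the members in stimulated DKO cells and 1.05-fold in stimulated WT cells, and over all genes by 1.22-fold in stimulated DKO cells and 1.10-fold in stimulated WT cells. Celf1 had the widest gap, at 212 and 348 CPM. Without DKO library 1 the edgeR test called 2 members higher and 7 lower, against 10.8% of all genes higher and 12.1% lower. Without DKO library 2 it called 1 higher and 16 lower, against 19.8% of all genes higher and 19.7% lower, each with the lone DKO library assumed to vary like the WT libraries. Luc7l2, at 447 and 725 CPM in DKO, against 593 and 513 CPM in WT, passed as higher without library 1 (0.39 ± 0.11, edgeR adjusted p = 0.0162) and as lower without library 2 (-0.30 ± 0.12, edgeR adjusted p = 0.0469).

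**Figure D3:**
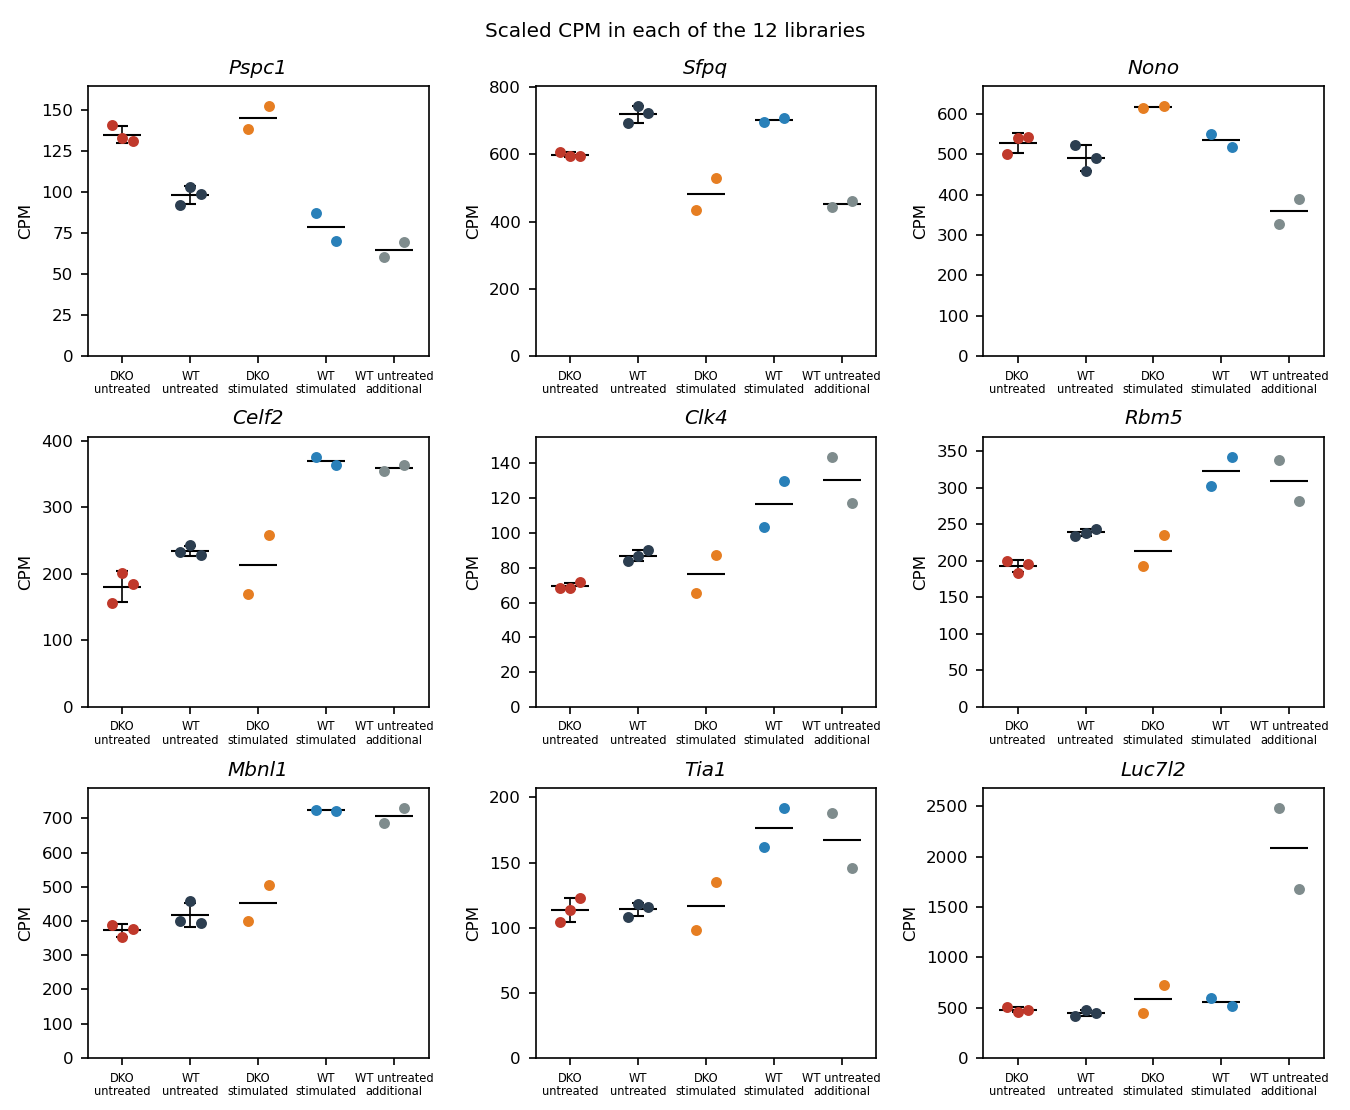
Level in each library (CPM, linear axis from 0) for 9 members, with the groups along the x axis, horizontal lines for group means and bars for ± 1 SD in groups of 3. Pspc1 lies higher in all DKO libraries than in all WT libraries, the stimulated DKO libraries lie apart from each other for Celf2 and Luc7l2, and Luc7l2 stands at 2485 and 1684 CPM in the additional WT libraries.

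Whether the genotype difference itself differed between conditions was tested as an interaction in a fit over 10 libraries. None of the 29 members passed the edgeR test, while 0.14% of 15006 genes did (0.133% higher and 0.00666% lower), and DESeq2 called no member either. At an unadjusted p under 0.05 there were 4 members, and 12% of all genes. The interaction, the log2 difference of DKO over WT in stimulated cells minus that in untreated cells, was -0.57 ± 0.19 for Tia1 and -0.54 ± 0.18 for Clk1 (edgeR adjusted p = 0.293 for both). For Mbnl1 it was -0.48 ± 0.17 (edgeR adjusted p = 0.329) and for Pspc1 it was 0.45 ± 0.17 (edgeR adjusted p = 0.333). Without stimulated DKO library 2, Celf1, Celf2, Mbnl1, Rbm25 and Tia1 passed with values of -0.79 to -0.49, and 3.59% of all genes passed as lower, 7.87% in either direction. The members' median interaction was -0.18 and that of all genes 0.05.

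In both genotypes stimulation came with a lower level of Srsf7, and in WT cells with higher levels of several alternative splicing regulators than in the numbered untreated libraries. In WT, Mbnl1, Celf2, Clk1, Tia1, Rbm5 and Clk4 rose and Srsf2, Srsf7 and Pspc1 fell, 9 of 29 members against 40.6% of all 15006 genes tested (17.8% higher and 22.8% lower). In DKO, Srsf4 rose and Srsf7, Tra2a and Sfpq fell, 4 of 29 members against 33.0% of all genes (16.2% higher and 16.8% lower). Without untreated DKO library 1 there were 0 higher calls in DKO, against 12.6% of all genes. The calls in DKO also shifted when either stimulated DKO library was left out, which leaves 1 library in that group. Condition, culture and the deposited table change together in these comparisons and cannot be told apart. The stimulation contrasts in the 2 genotypes are given side by side below, and the test of their difference is the interaction above.

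Among the regulators that rose in stimulated WT cells, Mbnl1 had the largest change, 0.77 ± 0.12 (edgeR adjusted p = 0.000366). Its 725 and 722 CPM in stimulated WT libraries lay above the 401, 458 and 395 CPM of the numbered untreated ones. The additional untreated WT libraries, which were not in this fit, had 686 and 730 CPM of Mbnl1. In DKO cells the change of Mbnl1 was 0.29 ± 0.12 and did not pass (edgeR adjusted p = 0.0911). Celf2 rose by 0.63 ± 0.15 in WT (edgeR adjusted p = 0.00594) and stood at 0.25 ± 0.16 in DKO. Both WT calls held in all 9 alternatives tried, none of which took in the additional WT libraries. Clk1 rose by 0.62 ± 0.13 in WT (edgeR adjusted p = 0.00199) and Tia1 by 0.61 ± 0.13 (edgeR adjusted p = 0.00331), with values of 0.08 ± 0.13 and 0.04 ± 0.14 in DKO that did not pass. Rbm5 rose by 0.41 ± 0.11 and Clk4 by 0.40 ± 0.13 in WT (edgeR adjusted p = 0.0115 and 0.0262), and both were positive without a call in DKO. Mean levels in the additional untreated and in the stimulated WT libraries were 359 and 370 CPM for Celf2 and 372 and 358 CPM for Clk1. They were 167 and 177 CPM for Tia1, 310 and 322 CPM for Rbm5, and 131 and 117 CPM for Clk4. The additional libraries were not tested against the stimulated ones. Without untreated WT library 1 the lower calls in WT were 1, against 19% of all genes. The unnumbered stimulated WT library is a WT column whose number matches no label. Without it, which leaves 1 stimulated WT library, the calls of Clk1, Tia1, Rbm5 and Clk4 and all lower calls in WT were lost.

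Among SR protein genes, Srsf7, which also acts in mRNA export, was called lower in both genotypes. It had 323 and 347 CPM in stimulated DKO libraries, against 448, 519 and 478 CPM in untreated DKO libraries, and 351 and 352 CPM in stimulated WT libraries, against 468, 435 and 454 CPM in untreated WT libraries. The groups were apart in each genotype, and Srsf7 fell by 0.52 ± 0.11 in DKO (edgeR adjusted p = 0.00289) and by 0.39 ± 0.11 in WT (edgeR adjusted p = 0.0113). The DKO call was lost with the replicate block. The WT call was lost without untreated WT library 1 and without either stimulated WT library. Srsf2 fell by 0.45 ± 0.12 in WT (edgeR adjusted p = 0.0115) and had -0.22 ± 0.12 in DKO (edgeR adjusted p = 0.192). Srsf4, the least abundant of the 10 per unit of length, had 49.7 and 56.8 CPM in stimulated DKO libraries, against 37.1, 41.3 and 43.6 CPM in untreated DKO libraries. It rose by 0.40 ± 0.12 in DKO (edgeR adjusted p = 0.0198), with 0.23 ± 0.12 in WT (edgeR adjusted p = 0.123). Tra2a had 143 and 171 CPM in stimulated DKO libraries, against 198, 229.9 and 221 CPM in untreated DKO libraries, with no overlap. It fell by 0.46 ± 0.11 in DKO (edgeR adjusted p = 0.00893) and had -0.19 ± 0.11 in WT. Srsf1, Srsf3, Srsf5, Srsf6, Srsf9, Srsf10 and Srsf11 passed in neither genotype.

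The DBHS genes again differed from each other. Pspc1 fell by 0.34 ± 0.12 on stimulation in WT (edgeR adjusted p = 0.0371) and had 0.11 ± 0.12 in DKO. The WT call was lost with RLE scaling, without any of the 3 untreated WT libraries and without the unnumbered stimulated one. Sfpq fell by 0.31 ± 0.11 in DKO (edgeR adjusted p = 0.0464), a call kept in 2 of 10 alternatives, and had -0.06 ± 0.11 in WT. Nono had 0.23 ± 0.11 in DKO and 0.10 ± 0.11 in WT, neither past the threshold.

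**Figure D4:**
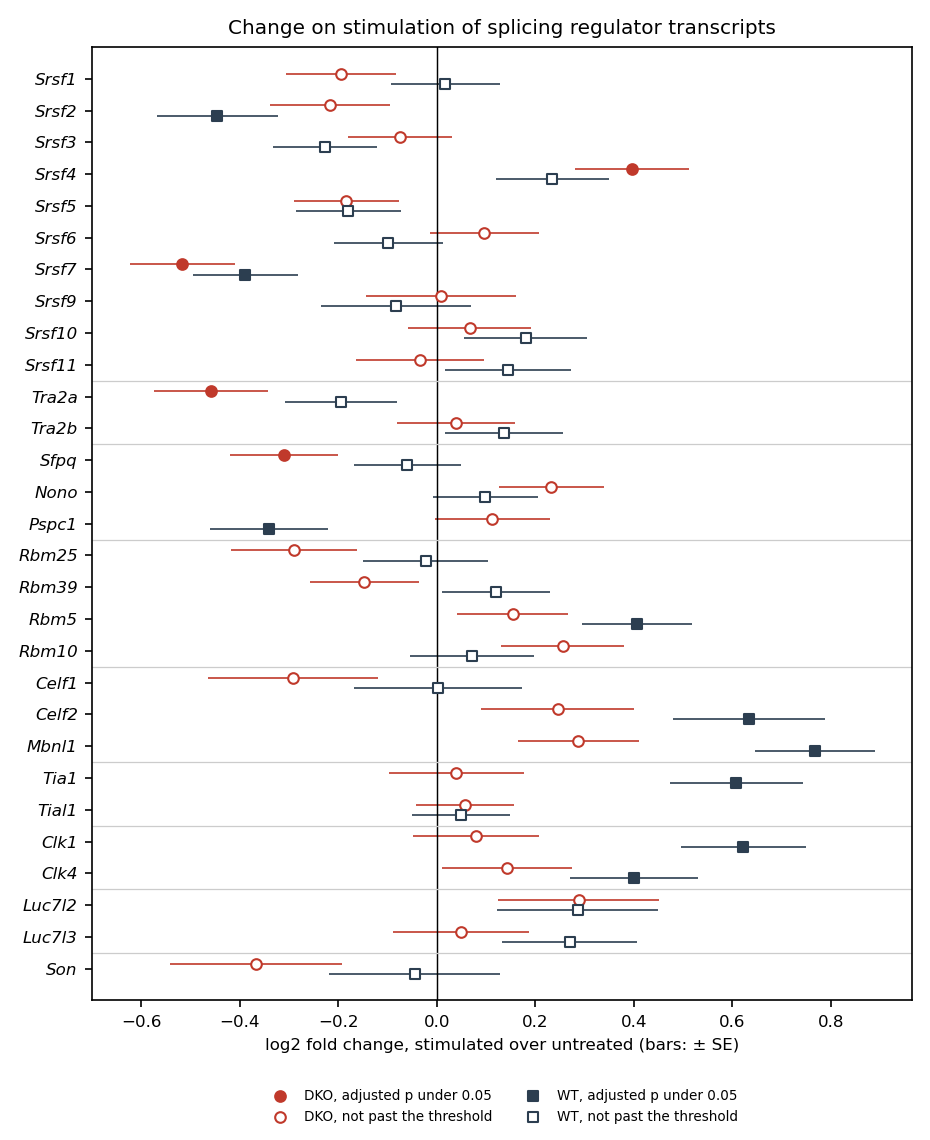
Log2 fold change of stimulated over untreated cells for the 29 tested members (points, with bars for ± 1 SE) in DKO and in WT, genes grouped by role. Filled points passed an adjusted p of 0.05: 4 in DKO, of which Srsf7 is lower in WT too, and 9 in WT, led by Mbnl1 at 0.77.

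Other genes of the splicing machinery were read from a list of 95, of which 92 were tested. In untreated cells 18 were higher and 1 lower in DKO, with a median log2 fold change of 0.11. In either direction this was 20.7% against the 19.5% of all genes, of which 8.81% were higher and 10.6% lower. The Sm and LSm proteins, which form the rings around the spliceosomal RNAs, had 8 of 14 higher and 0 lower, with a median of 0.32. The called share was 57.1%, against 8.81% of all genes higher and 10.6% lower. Counts for this list and for the 92 genes come from the main fits only and were not taken under the alternatives. Snrpe rose by 0.69 ± 0.10 (edgeR adjusted p = 0.00349) and Lsm2 by 0.43 ± 0.08 (edgeR adjusted p = 0.00803). U2af1, the small subunit of the factor that reads the 3′ splice site, rose by 0.43 ± 0.08 (edgeR adjusted p = 0.00723), and Zranb2, a zinc finger splicing factor, by 0.47 ± 0.06 (edgeR adjusted p = 0.00314). Tnpo3, the importer of SR proteins, rose by 0.28 ± 0.07 (edgeR adjusted p = 0.0287). Sf3a3, Rnps1, Pnn, Rbm4 and Eftud2 also rose, by 0.22 to 0.53, and Rbm6, a relative of Rbm5, fell by 0.28 ± 0.07 (edgeR adjusted p = 0.0229). In stimulated cells 5 of 92 were higher and 0 lower (5.43% against 11.3% of all genes, 5.09% higher and 6.17% lower). Among them were Snrpd2 at 0.72 ± 0.19, Snrpg at 0.68 ± 0.18 and U2af1 at 0.69 ± 0.17 (edgeR adjusted p = 0.0432, 0.0444 and 0.0369). None of the 92 passed the interaction. Small Sm and LSm genes have processed copies in the genome that can share reads, so their values are uncertain to that extent.

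The additional WT libraries differed from the numbered untreated WT libraries in most of the 29 genes, and they come from a separate table. The 2 sets of WT libraries were not tested against each other. Of the members 16 were higher and 10 lower with no overlap of the libraries and 3 overlapped, against 74.3% of 12765 genes with no overlap (36.6% higher and 37.7% lower). The median log2 ratio was 0.31 over the members and -0.00 over all genes. Luc7l2 (chr6:38528269-38586405, plus strand, GRCm39), a U1-associated factor, stood at 2485 and 1684 CPM in the additional libraries, against 419, 475 and 444 CPM in the numbered ones. This was a ratio of 4.67, the only one of the members past a log2 size of 1, which 22.5% of all genes passed. Mbnl1 had 686 and 730.2 CPM in the additional libraries, against 401, 458 and 395 CPM, and Srsf2 had 276 and 344 CPM, against 611, 569 and 608 CPM. The markers of monocytes and macrophages summed to 195 to 243 CPM in the additional libraries, above the 65.9 to 73.0 CPM of the numbered ones. Adgre1 alone had 172 to 219.8 CPM in the additional libraries and 31.1 to 48.1 CPM in the numbered ones, whereas Lyz2 had 3.38 to 3.71 CPM in the additional libraries and 6.99 to 25.4 CPM in the numbered ones. T cell markers summed to 127 to 131 CPM in the additional libraries and 76.3 to 101 CPM in the numbered ones, and dendritic cell markers to 93.6 to 108 CPM in the additional libraries and 57.1 to 78.0 CPM in the numbered ones. Of the T cell sum, Lck alone had 125 to 127 CPM in the additional libraries and 74.7 to 99.8 CPM in the numbered ones. The part of these markers in the differences was not tested.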

How the data were processed

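The submitters' processing notes name FastQC 0.10.1, cutadapt 1.9.1, HISAT2 2.2.1 and HTSeq 0.6.1, and the build GRCm39. The annotation release and whether counting used strand are not given in the sources. The deposited values are raw counts per gene in 3 tables made by the authors (untreated, stimulated and additional WT cells), and 12 columns of FPKM were not used. The table of additional WT cells lists coordinates of an older build, so those of the other tables are given. A stimulated WT column carries the number 3 while the labels number 1 and 2, and it is called the unnumbered library. No pair of libraries held identical counts.

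The counts were tested in R 4.3.3 with edgeR 4.0.16 (limma 3.58.1): a quasi-likelihood fit with TMM scaling and a two-sided test. Genes were kept by filterByExpr (minimum count 10, minimum total 15), and p-values were adjusted by Benjamini-Hochberg over every gene tested, with a threshold of 0.05. Genotypes were compared in separate fits of untreated and of stimulated libraries, and the interaction and the stimulation contrasts came from a fit of 10 libraries. Standard errors are the absolute log2 fold change over the square root of F. Levels of members are CPM scaled with TMM factors over the 12 libraries, those of markers and deleted genes are CPM by the plain total, and comparisons between genes use CPM per kilobase of the deposited exonic length. Promoter windows come from the RefSeq table of GRCm38.p6, with the most upstream window of each gene, and 28 of 30 members matched. Of the members 15 overlap another annotated gene, 9 of them one with a mean untreated count of 10 or more, and reads of such pairs may be shared. Of these, Sfpq, Srsf4, Srsf11 and Clk4 have a partner on the same strand, for which a strand setting would not help.

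The members, the other gene lists and the tests were chosen with earlier results of these data known. All members are named, with both deleted genes, the B cell markers as a sum and, of each list of other splicing genes, the smallest p-values among those called in each direction; some genes this rule takes in are not reported here. The fits were tested on simulated counts. Alternatives tried were scaling by RLE, DESeq2 1.42.0, no filter on low counts or a stricter one (1 CPM), each library left out, a block for the replicate number, a fit of genotype over 10 libraries, and WT with the additional libraries included.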

Additional observations from a re-analysis of the deposited data

Results flagged for a closer look

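In the additional untreated WT libraries, which the report compares with no group by a test, the lower library lay above the highest numbered untreated WT library by 1.5-fold or more for Luc7l2 and Rbm39. This looks only at higher values and at the nearest libraries, so members with a larger ratio of means (Mbnl1, 1.70) or a larger difference downward (Srsf2, 0.52) are not among them. Luc7l2, a U1-associated factor, averaged 2084 CPM in the additional libraries and 446 CPM in the numbered ones, a ratio of 4.67, and 122 of 12765 genes had a ratio at least as high. Rbm39, a U2AF-related splicing factor, averaged 839 CPM in the additional libraries and 503 CPM in the numbered ones, a ratio of 1.67, and 2326 genes had a ratio at least as high. These libraries come from a separate table, and table and library set cannot be told apart.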

How the results depend on the processing

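Of 1595 values of single members under an alternative, 1485 kept their side of the threshold (among them 86 that changed sign without passing under either setting), 49 calls were lost, 60 were gained and 1 reversed. The reversed value was Luc7l2 in stimulated cells without DKO library 2 (-0.30), against 0.39 without DKO library 1. In untreated cells the members called lower were 0 with the replicate block (3.38% of all genes) and with the additional WT libraries added to WT (1.64%). They were also 0 with a fit over 10 libraries (7.76%), and the members called higher were 0 with the additional WT libraries (0.635%). All genes called in untreated cells were 786 with the block (327 higher and 459 lower) and 319 with the additional WT libraries (89 higher and 230 lower). In stimulated cells the members called lower were 1 with RLE scaling (6.37% of all genes) and 1 with a stricter filter (7.47%). They were 5 with DESeq2 (6.81%), 5 with no filter (5.91%) and 7 with a fit over 10 libraries (10%). All genes called in either direction were 2847 with no filter and 3429 with that fit. For the interaction, all genes called were 174 with DESeq2 and 491 with no filter. For stimulation in DKO the members called higher were 3 with DESeq2 (16.8% of all genes). The block gave 0 higher and 0 lower, against 10.3% and 11.4% of all genes, and 3007 genes in all.

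Leaving out each library gave, for untreated cells, 923 to 2779 genes in all, 1 to 2 members higher and 0 to 4 lower. For stimulated cells it gave 576 to 5977 genes, 0 to 2 members higher and 0 to 16 lower, and for the interaction 1 to 1244 genes, 0 higher and 0 to 5 lower. For stimulation it gave 3965 to 5074 genes, 0 to 4 members higher and 2 to 8 lower in DKO, and 3557 to 5435 genes, 2 to 6 higher and 0 to 2 lower in WT. Deviations of libraries with the same number correlated at -0.353, -0.351 and 0.139 in untreated cells, so the numbers were not read as pairs. No block could be fitted for genotype in stimulated cells, where only the number 1 is shared. With 2 or 3 libraries a group, differences of the size seen in stimulated cells lay near the threshold, and a p that misses it does not show that values are alike.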
